A study of Rattus norvegicus with 2 samples.

Results

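Genes of the mitochondrial respiratory chain and of ATP synthase were examined in cultured rat (Rattus norvegicus) cortical neural stem cells after exposure to ZD7288, a compound that blocks HCN channels, the pacemaker channels opened by hyperpolarisation. Members were taken from the deposited gene table by symbol, as those that begin with Mt-, Nduf, Sdh, Uqcr or Atp5, or with Cox and a digit from 4 to 8. This gave 114 of 25399 gene rows. They were 13 mitochondrially encoded genes, 86 rows of nuclear-encoded subunits, 12 assembly factors named Ndufaf or Sdhaf, the inhibitor gene Atp5if1, the supercomplex gene Cox7a2l and the pseudogene Cox6c-ps1. Some symbols of nuclear subunits stand on more than 1 row (Cox6b1, Ndufa10l1, Ndufv3 and Uqcrb).

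The treated culture received 30 µM ZD7288 in 0.2% DMSO for 48 h, and the vehicle culture received 0.2% DMSO for the same time. In both, the medium was renewed at 24 h and held FGF2, a growth factor that keeps such cells undifferentiated. Per the labels, the cells were commercial neural stem cells from the cortex of Sprague-Dawley rats at E14.5, with no word on how many embryos were pooled. Each group was 1 culture and 1 library of droplet-captured cells, so culture, library and treatment cannot be told apart and no test across samples was possible.

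Oxidative phosphorylation runs through complexes I to V of the inner mitochondrial membrane. Complex I takes electrons from NADH and complex II from succinate, complex III hands them to cytochrome c, complex IV passes them to oxygen, and complex V, ATP synthase, uses the resulting proton gradient to make ATP. Complex II is wholly nuclear-encoded, and the other complexes join subunits of both genomes. Mitochondrial DNA is read from both strands as long transcripts that are cut into single messages, and among the protein genes Mt-nd6 alone lies on the light strand. Neural stem cells are known to rely more on glycolysis than the neurons they form.

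Each captured molecule carries a unique molecular identifier (UMI) at its 3′ end, so counts were not divided by gene length, and levels are given as UMIs per 1000000 UMIs of the library (CPM). After filtering, the ZD7288 library held 3135 cells and 73681950 UMIs, and the vehicle library 732 cells and 15611454 UMIs, with medians of 23001 and 17119 UMIs per cell. The 11 neural stem cell markers, 8 of them measured, summed to 7549 CPM in ZD7288 cells and 7629 CPM in vehicle cells, mostly Vim and Fabp7. Vim stood at 4690 CPM and 4204 CPM, and Fabp7 at 2023 CPM and 2647 CPM. Sox9 (78.2 CPM and 138 CPM) and Notch1 (19.7 CPM and 47.3 CPM) were lower in ZD7288 cells. Slc1a3 (294 CPM and 186 CPM) and Msi1 (36.0 CPM and 18.6 CPM) were higher. The marker Hes5 was nearly absent at 0.0407 CPM and 0.256 CPM. Neuron markers summed to 82.7 CPM and 103 CPM, mostly Map2, although Tubb3 stood at 13.0 CPM and 4.42 CPM. Summed oligodendrocyte precursor markers stood at 1166 CPM in ZD7288 cells and 2128 CPM in vehicle cells, nearly all of it Olig1 and Olig2, and pericyte and fibroblast markers at 7.29 CPM and 0.128 CPM. Markers of microglia, endothelium and red cells were at or near 0. Barcode letters shared between the libraries numbered 3. Ratios are ZD7288 over vehicle with an exact 95% interval that covers counting error only. A gene was called measured at a mean of at least 20 CPM over both libraries, and it was called higher or lower where its log2 ratio was at least 0.32 above or below 0.

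Transcripts of mitochondrial DNA took a smaller share of the RNA in ZD7288 cells, and the shortfall was uneven along the genome. Their summed level was 48634 CPM in the ZD7288 library and 60306 CPM in the vehicle library, or 4.86% and 6.03% of all UMIs, a 1.24-fold lower level (1.237 to 1.243). Of 12 measured genes 6 were lower and 1 was higher, against a background of 12.2% lower and 26.1% higher among all 4556 measured genes. The median log2 ratio was -0.27 over these 12 genes and 0.09 over all measured genes. The 10% limit on mitochondrial UMIs that was used to keep cells acts on these same genes. Without that limit the log2 ratio of the summed level was -0.25, against -0.31 with it, and among cells of at most 5% mitochondrial UMIs it was -0.083, the median over genes was 0.02, and 3 genes were lower and 2 higher. Shares over all measured genes among these cells are not given here.

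The deepest shortfall was in Mt-cyb (ENSRNOG00000031766), which encodes cytochrome b, the mitochondrially encoded subunit of complex III. It stood at 4470 CPM in ZD7288 cells and 6705 CPM in vehicle cells, a ratio of 0.667 (0.662 to 0.671). The 3 genes of the catalytic core of complex IV were all lower. Mt-co3 stood at 5965 CPM in ZD7288 cells and 8539 CPM in vehicle cells, 1.43-fold lower (1.42 to 1.44). Mt-co2, whose product takes electrons from cytochrome c, was 1.34-fold lower (1.33 to 1.35), at 6690 CPM and 8974 CPM. Mt-co1, which holds the oxygen-binding site, was 1.31-fold lower (1.30 to 1.32), at 5413 CPM and 7076 CPM. Among cells of at most 5% mitochondrial UMIs the log2 ratios of Mt-cyb and Mt-co3 were -0.38 and -0.34, still past the size rule, and those of Mt-co2 and Mt-co1 were -0.22 and -0.17, short of it.

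Mitochondrially encoded genes of complex I went different ways. Mt-nd3 was 1.44-fold lower (1.42 to 1.46), at 1174 CPM in ZD7288 cells and 1690 CPM in vehicle cells. Mt-nd4 had a ratio of 0.799 (0.787 to 0.812), at 1027 CPM and 1286 CPM. Both were lower by the size rule, but Mt-nd4 only just, with a log2 ratio of -0.30 without the mitochondrial limit and -0.011 at a limit of 5%. Mt-nd2 had a ratio of 0.866 (0.859 to 0.873), at 4245 CPM and 4902 CPM, and Mt-nd5 0.962 (0.928 to 0.997), at 228 CPM and 237 CPM. Mt-nd1 (ENSRNOG00000030644) was the most abundant of the complex I messages and had a ratio of 1.06 (1.05 to 1.07), at 7111 CPM in ZD7288 cells and 6696 CPM in vehicle cells. The light-strand gene Mt-nd6 (ENSRNOG00000029042) was the gene that was higher, 1.71-fold (1.55 to 1.89), at 48.4 CPM in ZD7288 cells and 28.3 CPM in vehicle cells. Its message is known in human cells to lack a stable poly(A) tail, on which this capture depends. The sources used here do not state whether the counting used strand, and the part of opposite-strand RNA in the Mt-nd6 counts was not tested. Mt-nd4l, below the floor for measured genes, had 922 UMIs in ZD7288 cells and 149 in vehicle cells, a ratio of 1.31 (1.10 to 1.57).

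For ATP synthase, Mt-atp6 encodes the membrane subunit through which protons pass. It was the most abundant mitochondrial message, at 12222 CPM in ZD7288 cells and 14134 CPM in vehicle cells, with a ratio of 0.865 (0.861 to 0.869). Mt-atp8 stood at 29.0 CPM and 28.6 CPM, with a ratio of 1.01 (0.915 to 1.13). Mt-atp8 overlaps Mt-atp6 and Mt-nd4l overlaps Mt-nd4 on shared messages, so the division of reads within each pair is uncertain.

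**Figure D1:**
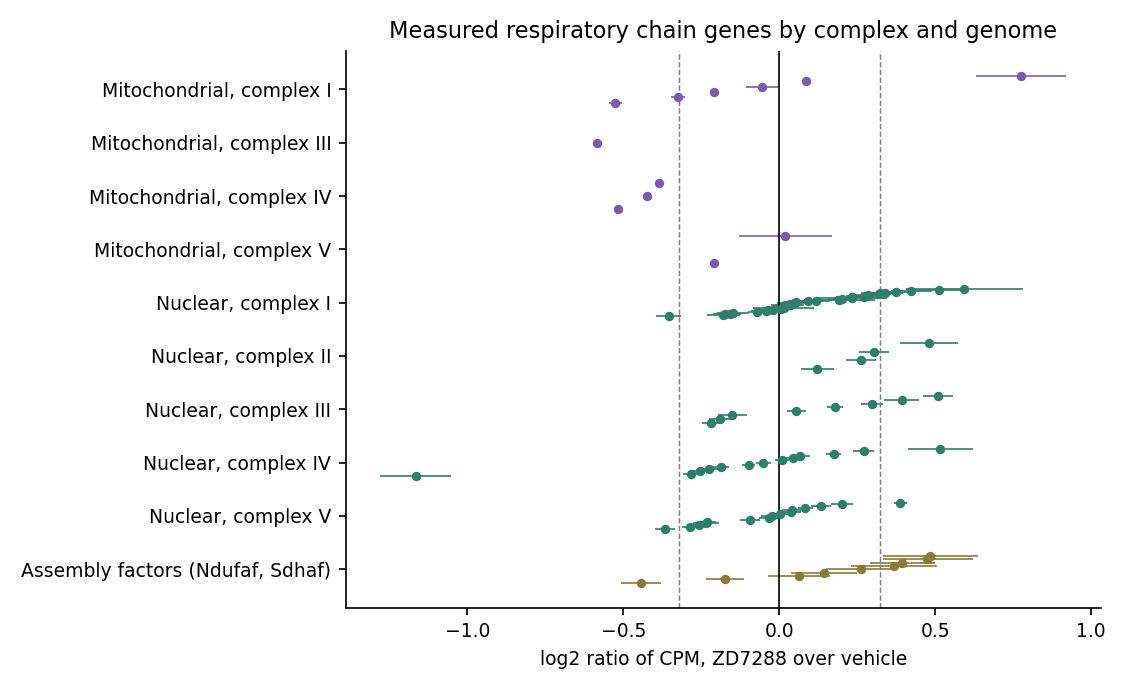
Log2 ratios of CPM, ZD7288 over vehicle, of the measured members (points) with exact 95% counting intervals (lines), in rows by complex and genome of origin. Dashed lines mark a log2 ratio of 0.32 in either direction. Mitochondrially encoded genes of complexes III and IV all lie left of the dashed line at lower levels, while most nuclear subunits lie between the dashed lines.

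Relative to each other, the mitochondrial messages can be compared without any scaling of the libraries. Mt-nd1 made up 14.6% of mitochondrially encoded UMIs in ZD7288 cells and 11.1% in vehicle cells, and Mt-cyb 9.19% and 11.1%. Mt-co3 made up 12.3% in ZD7288 cells and 14.2% in vehicle cells, and Mt-atp6 25.1% and 23.4%. The shares of Mt-nd6 were 0.0996% (0.0963 to 0.103) and 0.0469% (0.0427 to 0.0515). Mt-nd1, Mt-nd2, Mt-nd5, Mt-nd6, Mt-nd4l, Mt-atp6 and Mt-atp8 took larger shares in ZD7288 cells, Mt-co1, Mt-co2, Mt-co3, Mt-nd3 and Mt-cyb smaller ones, and the intervals of Mt-nd4 overlapped.

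**Figure D2:**
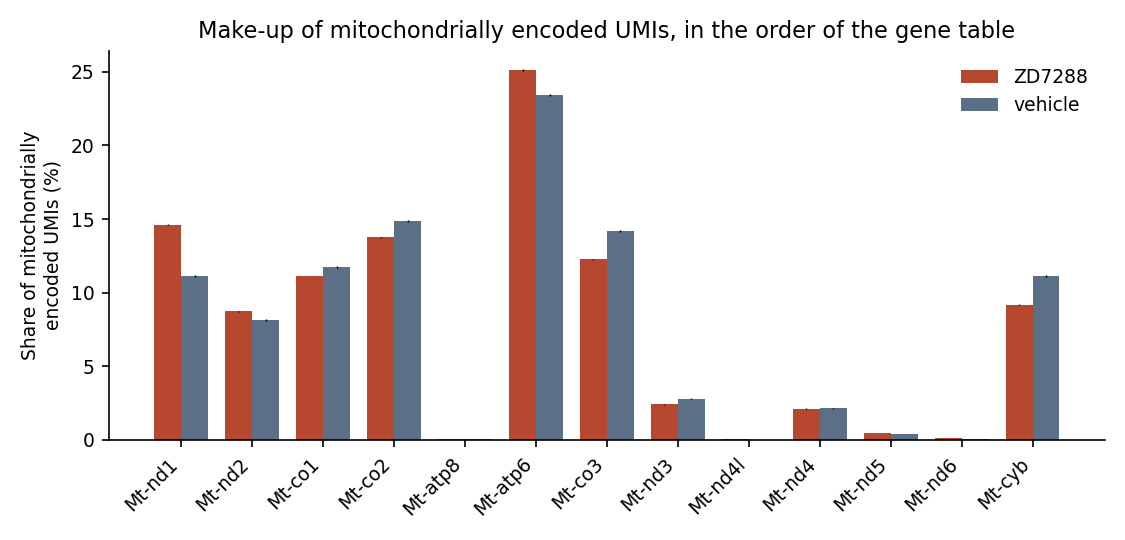
Share of mitochondrially encoded UMIs (%) taken by each of the 13 genes in kept cells of the ZD7288 library (left bar of each pair) and the vehicle library (right bar), in the order of the deposited gene table. Lines on the bars are exact 95% binomial intervals. Mt-nd1 reaches 14.6% in ZD7288 cells and 11.1% in vehicle cells, and Mt-cyb 9.19% and 11.1%.

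Mt-nd1 and Mt-cyb were set against each other after their values were seen, as abundant genes whose shares moved in opposite directions. Mt-nd6 and Mt-nd4l, with fewer UMIs, had larger ratios than Mt-nd1, at 1.71 and 1.31. There were 1.59 Mt-nd1 UMIs per Mt-cyb UMI (1.584 to 1.598) in ZD7288 cells and 0.999 (0.990 to 1.01) in vehicle cells. Over 5 ranges of UMIs per cell this quotient lay between 1.51 and 1.64 in ZD7288 cells and between 0.936 and 1.02 in vehicle cells. In barcodes above the 10% limit, which were left out elsewhere, it was 1.64 (1.62 to 1.66) in the ZD7288 library and 1.03 (0.996 to 1.06) in the vehicle library. The intervals of the libraries did not overlap in any of these ranges. Because the pair was picked from these same libraries, this was partly fixed in advance.

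**Figure D3:**
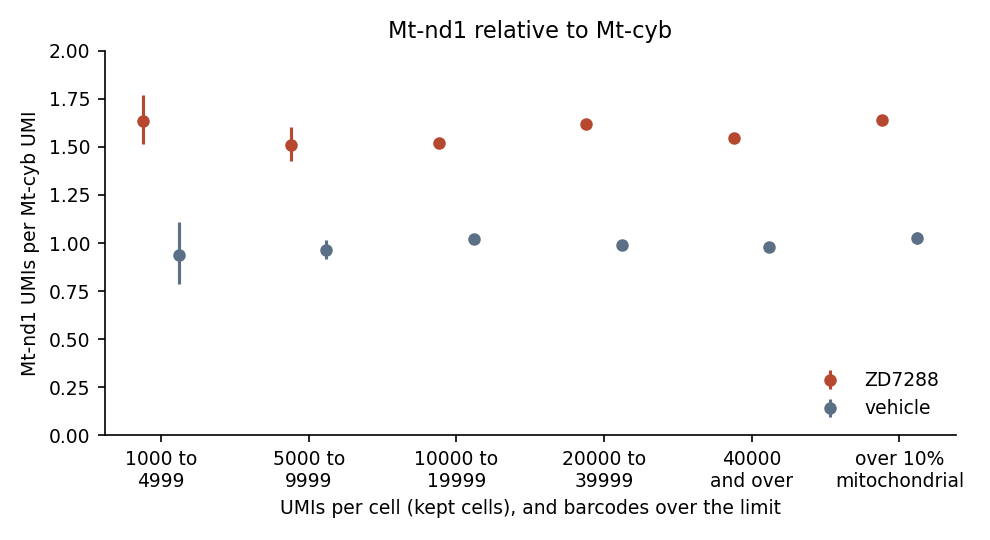
Mt-nd1 UMIs per Mt-cyb UMI in ZD7288 (left point of each pair) and vehicle cells (right point), summed over kept cells within ranges of UMIs per cell and over barcodes above 10% mitochondrial UMIs, with exact 95% counting intervals. ZD7288 points lie between 1.51 and 1.64 and vehicle points between 0.936 and 1.03.

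Nuclear-encoded subunits as a group kept nearly the same share of the RNA. Their summed level was 38066 CPM in ZD7288 cells and 37617 CPM in vehicle cells, a ratio of 1.01 (1.009 to 1.015). Of nuclear UMIs alone they made up 4.001% in ZD7288 cells (3.997 to 4.006) and 4.003% in vehicle cells (3.993 to 4.013). Of 86 rows 74 were measured, of which 11 were higher and 3 lower. These are 14.9% and 4.05%, against 26.1% and 12.2% of all measured genes. The median log2 ratio of the 74 was 0.04, against 0.09 over all measured genes. With the libraries scaled to a median gene ratio of 1, 6 subunits were higher and 7 lower, and among cells of at most 5% mitochondrial UMIs 2 were higher and 5 lower. Shares over all measured genes in these settings are not given here, so these counts cannot be read against a background. At a stricter rule of 1.5-fold 1 subunit was higher and 1 lower, Ndufs1 and Cox6b2, against 9.22% higher and 4.17% lower of all measured genes. Ndufs1 passed only just, at 1.507-fold, and its mean of 21.3 CPM lay near the floor of 20 CPM. The UMI ratio of mitochondrially encoded genes to nuclear subunits was 1.28 in ZD7288 cells and 1.60 in vehicle cells.

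Complex I had 34 measured nuclear rows of 37, with 6 higher and 1 lower. These are 17.6% and 2.94%, both below the 26.1% and 12.2% of all measured genes. The rows had a summed level of 10689 CPM in ZD7288 cells and 10185 CPM in vehicle cells. Its 7 nuclear core subunits, which with the mitochondrially encoded ones make up the catalytic core, summed to 1452 CPM in ZD7288 cells and 1238 CPM in vehicle cells, a ratio of 1.17 (1.16 to 1.19). The 30 rows of accessory subunits summed to 9237 CPM and 8947 CPM, a ratio of 1.03 (1.03 to 1.04). This division into core and accessory subunits was made after values were seen. Ndufs1, the largest core subunit, had the widest ratio at 1.51-fold higher (1.32 to 1.72), at 25.6 CPM in ZD7288 cells and 17.0 CPM in vehicle cells. Ndufv1, which binds NADH and the flavin, was 1.43-fold higher (1.36 to 1.501), at 161 CPM and 112 CPM. The core subunits Ndufs3, Ndufs7, Ndufv2 and Ndufs8 had ratios of 1.21, 1.18, 1.15 and 0.971. Among cells of at most 5% mitochondrial UMIs the log2 ratio was 0.37 for Ndufs1, which stayed past the size rule, and 0.17 for Ndufv1, which did not.

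Accessory subunits of complex I stabilise the enzyme around this core. Ndufa9, Ndufa13 and Ndufs4 were higher, at 1.34-fold (1.28 to 1.40), 1.30-fold (1.26 to 1.33) and 1.251-fold (1.20 to 1.31). Ndufa2 was lower, at 305 CPM in ZD7288 cells and 390 CPM in vehicle cells, 1.28-fold (1.24 to 1.32). Among cells of at most 5% mitochondrial UMIs the log2 ratios of Ndufa9, Ndufa13 and Ndufs4 were 0.076, 0.23 and 0.078, short of the size rule, and that of Ndufa2 was -0.45. Ndufs4 also fell short with the libraries scaled by nuclear UMIs, at 0.31. Most others lay close to 1. The most abundant nuclear subunits of complex I, Ndufb8 and Ndufb4, had ratios of 0.952 (0.932 to 0.972) and 1.01 (0.989 to 1.03), and every measured gene named Ndufb lay between 0.883 and 1.04. Ndufa1, an accessory subunit that complex I needs, was listed at 0 in both libraries.

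All 4 genes of complex II had ratios above 1, and 1 passed the size rule (25%, near the 26.1% of all measured genes). Sdha, the flavoprotein that oxidises succinate, was 1.39-fold higher (1.31 to 1.49), at 97.0 CPM in ZD7288 cells and 69.6 CPM in vehicle cells. The iron-sulfur subunit Sdhb had a ratio of 1.23 (1.19 to 1.28), and the membrane anchors Sdhc and Sdhd 1.20 (1.16 to 1.24) and 1.09 (1.05 to 1.13). Summed, complex II stood at 960.2 CPM in ZD7288 cells and 802 CPM in vehicle cells, a ratio of 1.20 (1.17 to 1.22). Among cells of at most 5% mitochondrial UMIs the log2 ratio of this sum was 0.095, against 0.26 in all kept cells, and that of Sdha was 0.013 (-0.16 to 0.19), against 0.48, so that its call was lost.

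In complex III, 2 of 8 measured nuclear rows were higher (25%, near the 26.1% of all measured genes) and 0 lower. These were Uqcrc1 and Uqcrc2, the core proteins on the matrix side. Uqcrc1 stood at 376 CPM in ZD7288 cells and 265 CPM in vehicle cells, 1.42-fold higher (1.38 to 1.47), and Uqcrc2 at 247 CPM and 188 CPM, 1.31-fold (1.26 to 1.37). Both calls were lost among cells of at most 5% mitochondrial UMIs, with log2 ratios of 0.20 and 0.22. Uqcrq, the most abundant nuclear subunit of the complex in both libraries, had a ratio of 1.13 (1.11 to 1.15), and Uqcrb 1.04 (1.02 to 1.06). The Rieske iron-sulfur protein gene Uqcrfs1 had a ratio of 0.901 (0.873 to 0.9303), and Uqcr10, second by the mean of both libraries, the smallest ratio, at 0.859 (0.842 to 0.876). Cyc1, which encodes cytochrome c1 and lies outside the symbol prefixes, had a ratio of 1.248 (1.21 to 1.28) that fell just short of the size rule.

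In complex V, 1 of 15 measured nuclear rows was higher and 1 lower (6.67% each, against 26.1% and 12.2% of all measured genes). Atp5f1b, the catalytic beta subunit, had the highest mean level of any nuclear subunit over both libraries, at 1788 CPM in ZD7288 cells and 1367 CPM in vehicle cells, 1.31-fold higher (1.29 to 1.33). In vehicle cells Cox8a, at 1453 CPM, and Atp5mc2, at 1438 CPM, lay above it. Its log2 ratio was 0.39, against 0.19 among cells of at most 5% mitochondrial UMIs and 0.30 with the libraries scaled to a median gene ratio of 1, both short of the size rule. Its partner Atp5f1a had a ratio of 1.03 (1.01 to 1.05). Atp5me, a small membrane subunit, was 1.29-fold lower (1.26 to 1.32), at 505 CPM and 651 CPM. Atp5mc2, second in complex V by the mean of both libraries, had a ratio of 0.836 (0.824 to 0.849). The 3 genes for the rotating c subunit, Atp5mc1, Atp5mc2 and Atp5mc3, encode the same mature protein. Atp5mc1 gave 32.4% of the UMIs of Atp5mc1 and Atp5mc2 together in ZD7288 cells (32.2 to 32.7) and 29.1% in vehicle cells (28.6 to 29.6). Atp5if1, which blocks reverse running of the enzyme, had a ratio of 0.935 (0.905 to 0.966). Atp5pb, a stalk subunit, was listed at 0 in both libraries.

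Among nuclear genes of complex IV, which here include Ndufa4 and Ndufa4l2 because Ndufa4 is a subunit of cytochrome c oxidase, the summed level was 10517 CPM in ZD7288 cells and 10829 CPM in vehicle cells, a ratio of 0.971 (0.966 to 0.976). Of 13 measured rows 1 was higher and 1 lower (7.69% each, against 26.1% and 12.2% of all measured genes). Cox8a and Cox6a1, the most abundant by the mean of both libraries, had ratios of 0.935 (0.921 to 0.948) and 1.13 (1.11 to 1.15), and Cox4i1 1.01 (0.990 to 1.02). The higher row was the second row of Cox6b1 (ENSRNOG00000034161), at 80.8 CPM in ZD7288 cells and 56.5 CPM in vehicle cells, 1.43-fold (1.33 to 1.54). The main row of Cox6b1 had a ratio of 0.879 (0.863 to 0.895) at 799 CPM and 909 CPM, and reads can be divided between such copies, so both ratios are uncertain. The supercomplex gene Cox7a2l had a ratio of 1.08 (1.05 to 1.11).

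Several isoforms of complex IV subunits that are known from restricted tissues differed widely between the libraries. Cox6a2 (ENSRNOG00000019851), the heart and skeletal muscle isoform of subunit 6A, had 1076 UMIs in ZD7288 cells, or 14.6 CPM (13.7 to 15.5), and 0 UMIs in vehicle cells. A count of 0 allows up to 0.192 CPM by 3 counts over the vehicle library, so by that limit Cox6a2 was at least 76.0-fold higher. The exact 95% interval of its ratio, which also covers counting error in the ZD7288 library and takes a wider limit for 0 vehicle UMIs, begins at 61.7. It was the 1 gene of the table with at least 10 CPM in ZD7288 cells and 0 UMIs in vehicle cells, and 3 genes had at least 5 CPM and 0 UMIs. Its mean over both libraries was below the floor for measured genes, so it is not among the counts above. Cox6b2 (ENSRNOG00000038616), the testis isoform of subunit 6B, was 2.24-fold lower (2.07 to 2.43), at 26.4 CPM in ZD7288 cells and 59.3 CPM in vehicle cells.

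Promoter windows of these isoforms are shown with that of Uqcrc1, a constitutive subunit, because they differ in the short motifs they hold. The RefSeq table (build GRCr8) gave windows from 250 bases before to 50 after the gene start for 85 of 101 nuclear member rows. The Cox6a2 window (chr1:192219667-192219966, minus strand) holds the composite element of ATF4 and C/EBP factors, TGATGNAAT on either strand, in capitals 114 bases before the start. The Cox6b2 window (chr1:78122621-78122920, plus strand) holds none of the motifs searched. The Uqcrc1 window (chr8:118467973-118468272, plus strand) holds an NRF1 motif (GCGC, any base, TGCGC) 64 bases before the start and a YY1 motif, AAGATGGC, that begins 1 base before it, both in capitals.
Cox6a2: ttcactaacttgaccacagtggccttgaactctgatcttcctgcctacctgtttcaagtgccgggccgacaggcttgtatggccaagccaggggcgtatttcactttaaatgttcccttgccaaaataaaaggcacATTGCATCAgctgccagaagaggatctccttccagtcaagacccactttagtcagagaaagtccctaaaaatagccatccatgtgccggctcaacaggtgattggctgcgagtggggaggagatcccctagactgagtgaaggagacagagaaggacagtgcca
Cox6b2: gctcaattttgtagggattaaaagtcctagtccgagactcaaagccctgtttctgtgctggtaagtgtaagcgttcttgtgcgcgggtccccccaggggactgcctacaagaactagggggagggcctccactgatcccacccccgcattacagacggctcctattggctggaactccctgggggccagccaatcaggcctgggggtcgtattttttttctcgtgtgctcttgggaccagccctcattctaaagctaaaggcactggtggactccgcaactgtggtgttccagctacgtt
Uqcrc1: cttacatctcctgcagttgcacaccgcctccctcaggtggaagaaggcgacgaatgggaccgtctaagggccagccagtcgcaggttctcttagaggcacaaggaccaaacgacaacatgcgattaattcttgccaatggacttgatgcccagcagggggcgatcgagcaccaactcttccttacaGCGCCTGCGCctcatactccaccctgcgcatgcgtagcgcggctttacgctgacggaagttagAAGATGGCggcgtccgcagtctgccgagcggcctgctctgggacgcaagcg

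Cox6a2 was the 1 member of 85 with the ATF4 and C/EBP element, or 1.18%. This lay near the share over all promoter windows of protein-coding genes, 185 of 21851 (0.847%). NRF1, a factor known to drive respiratory chain genes, had its motif in 17 of the 85 and in 5.67% of all windows, and YY1 in 16 of the 85 and in 3.67%. Motifs were searched on both strands and do not overlap in these windows. The NRF1 motif stood in 2 of 9 windows of subunits that were higher and in 11 of 55 of the other measured subunits. A match describes these letters and not the binding of a factor.

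Within pairs of isoforms, Cox6a2 made up 1.08% of Cox6a1 and Cox6a2 UMIs in ZD7288 cells (1.02 to 1.14), and 0 of 18538 in vehicle cells, which allows up to 0.0162%. Cox6b2 made up 2.91% of Cox6b2 and Cox6b1 UMIs, both rows of Cox6b1 included, in ZD7288 cells (2.79 to 3.04) and 5.78% in vehicle cells (5.42 to 6.15). The other restricted isoforms were far below the floor. Cox4i2, known from lung and from low oxygen, had 77 UMIs in ZD7288 cells and 7 in vehicle cells, a ratio of 2.33 (1.08 to 5.99). Cox7a1, the heart and muscle form, had 123 and 14 UMIs, a ratio of 1.86 (1.07 to 3.505) that was turned round by a stricter mitochondrial limit and by averaging per-cell shares. Ndufa4l2, known to be induced by low oxygen, had 42 and 6 UMIs, a ratio of 1.48 (0.627 to 4.27), and Cox8b had 6 and 0. Cox7b2, Cox8c and the pseudogene Cox6c-ps1 were listed at 0 in both libraries.

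**Figure D4:**
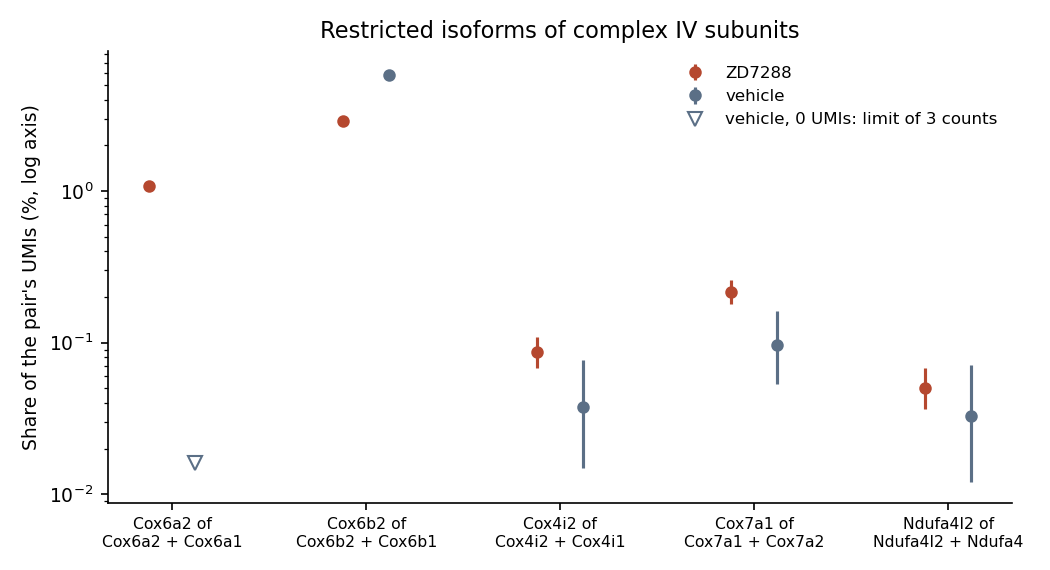
Share of a restricted isoform among the UMIs of an isoform pair (%, log axis) in ZD7288 (left point) and vehicle cells (right point), with exact 95% binomial intervals. The open triangle marks the limit that 0 vehicle UMIs of Cox6a2 allow, 0.0162%. Cox6a2 reaches 1.08% in ZD7288 cells, and Cox6b2 2.91% in ZD7288 cells and 5.78% in vehicle cells.

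Cox6a2 UMIs were found in a minority of ZD7288 cells, and some of these cells held several. At least 1 UMI was found in 605 of 3135 cells, or 19.3% (17.9 to 20.7), of which 380 had 1 UMI, 119 had 2 and 106 had 3 or more, up to 14. With each cell thinned to 2000 UMIs, which left out 179 ZD7288 and 8 vehicle cells, the share was 2.77% (2.21 to 3.43) in ZD7288 cells and 0 of 724 in vehicle cells, which allows up to 0.414%. Its level lay between 12.1 CPM and 16.0 CPM in the 5 ranges of UMIs per cell, and at 14.1 CPM (9.20 to 20.6) in ZD7288 barcodes above the mitochondrial limit. No cell type that should lack Cox6a2 was identified, so the part of free RNA in these UMIs was not tested. Summed pericyte and fibroblast markers, none of them measured, were also higher in the ZD7288 library (7.29 CPM against 0.128 CPM), and their part in the Cox6a2 result was not tested. Of its neighbours in the gene table, Armc5 had a ratio of 1.27 (1.09 to 1.49) and Tgfb1i1 2.81 (2.41 to 3.29). Pycard, with 239 UMIs in ZD7288 cells and 24 in vehicle cells, had a ratio of 2.11 (1.38 to 3.36). Trim72, Itgax and Slc5a2 had 6, 1 and 1 UMIs in ZD7288 cells and 0 in vehicle cells.

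Assembly factors put the complexes together and are no part of them. Of 12 Ndufaf and Sdhaf genes 9 were measured, 7 with a log2 ratio above 0 and 2 below. Their median was 0.26, against 0.09 over all measured genes. By the size rule 4 were higher (44.4%, against 26.1% of all measured genes) and 1 lower (11.1%, against 12.2%). The summed level was 666 CPM in ZD7288 cells and 667 CPM in vehicle cells. The 2 most abundant, Ndufaf8 and Sdhaf1, had ratios of 0.887 and 0.736. Ndufaf7 and Ndufaf6 were 1.40-fold (1.26 to 1.56) and 1.39-fold higher (1.26 to 1.54), and Ndufaf3 1.31-fold (1.22 to 1.41). Sdhaf2, which aids the attachment of flavin to Sdha, was 1.29-fold higher (1.17 to 1.42), and Sdhaf1, which aids the iron-sulfur clusters of Sdhb, was 1.36-fold lower (1.30 to 1.42), at 124 CPM and 169 CPM. Among cells of at most 5% mitochondrial UMIs the call of Ndufaf6 held, at a log2 ratio of 0.35, while Ndufaf7, at 0.15, and Ndufaf3, Sdhaf2 and Sdhaf1, at 0.318, 0.313 and -0.319, were short of the size rule. Below the floor, Ndufaf1 had 402 UMIs in ZD7288 cells and 35 in vehicle cells, a ratio of 2.43 (1.72 to 3.54), and Sdhaf4 606 and 232 UMIs, a ratio of 0.553 (0.475 to 0.647).

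Further genes of the pathway were read from 9 lists, in which 117 of 125 entries were matched and 68 measured. Of these 22 were higher and 5 lower. More were thus higher than lower, as among all measured genes (26.1% higher and 12.2% lower). Counts of single lists, most of them of few genes, are to be read against these same shares and a median log2 ratio of 0.09. In the complex IV assembly list 4 of 11 were lower and 0 higher, and the median log2 ratio was -0.26. Cox20, a chaperone of the Mt-co2 product, had a ratio of 0.665 (0.617 to 0.718) and was lower, as were Coa5 at 1.37-fold (1.30 to 1.45), Cmc1 at 1.30-fold (1.19 to 1.42) and Pet100 at 1.27-fold (1.21 to 1.34). The coenzyme Q list had 5 of 7 higher, against 26.1% of all measured genes, and 0 lower, with Coq5, Coq3 and Coq6 at 1.45-fold (1.30 to 1.62), 1.44-fold (1.33 to 1.56) and 1.42-fold (1.27 to 1.59) and Coq9 at 1.28-fold (1.19 to 1.38). In the list of mitochondrial DNA, transcription and RNA 5 of 15 were higher, a share near the background of 26.1%, and 0 lower. Lrpprc, which stabilises mitochondrial messages, was 1.57-fold higher (1.43 to 1.72), the tRNA-processing nuclease gene Elac2 1.53-fold (1.34 to 1.75), the RNA-degrading enzyme gene Pnpt1 1.45-fold (1.28 to 1.64) and Trmt10c 1.31-fold (1.20 to 1.43). Tfam, which packages and transcribes mitochondrial DNA, had a ratio of 0.836 (0.797 to 0.876).

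The mitochondrial stress list, of proteases and chaperones, had 5 of 9 measured genes higher and 0 lower, and its median log2 ratio was 0.50, against 26.1% higher, 12.2% lower and a median of 0.09 over all measured genes. Lonp1, a matrix protease, was 1.80-fold higher (1.68 to 1.93), the chaperone gene Trap1 1.64-fold (1.52 to 1.78), Clpx 1.59-fold (1.41 to 1.79) and Hspd1 1.53-fold (1.49 to 1.56). Clpp was 1.41-fold higher (1.31 to 1.52). Short of the size rule were Hspe1, at a ratio of 0.858 (0.838 to 0.878), and Dnaja3, Afg3l2 and Spg7, at 1.22, 1.16 and 1.13. The secreted stress factors Gdf15 and Fgf21, which were under the floor and are given because of their values, had 324 and 86 UMIs in ZD7288 cells and 2 and 3 UMIs in vehicle cells. Their ratios were 34.3 (9.43 to 285) and 6.07 (2.01 to 30.0). In the other lists, of at most 9 measured genes each, few genes passed the size rule. Complex I assembly outside the prefixes had 2 of 6 higher, with Ecsit at 1.39-fold (1.252 to 1.54) and Acad9 at 1.2504-fold (1.14 to 1.38). Complex V assembly had 1 of 2, Tmem70 at 1.64-fold (1.49 to 1.80). The regulators had 2 of 4, Esrra at 1.29-fold (1.19 to 1.41) and Gabpb1 at 1.28-fold (1.16 to 1.42). Carriers had 1 of 9, the outer membrane channel gene Vdac1 at 1.39-fold (1.35 to 1.43). In complex III and supercomplex assembly Uqcc1 was 1.26-fold higher (1.13 to 1.40) and Higd1a 1.35-fold lower (1.31 to 1.39).

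Over cells, the mitochondrially encoded share varied far more than the nuclear subunits. In kept cells its median was 4.70% in ZD7288 cells (quartiles 3.91 and 5.46) and 5.84% in vehicle cells (quartiles 5.08 and 6.72). Cells below 1% made up 6.38% of ZD7288 cells (5.55 to 7.29) and 0.956% of vehicle cells (0.385 to 1.96). With each cell thinned to 2000 UMIs, mitochondrially encoded genes gave a mean of 95.2 UMIs (SD over cells 29.8) in ZD7288 cells and 118.5 (SD 30.6) in vehicle cells. Nuclear subunits gave 77.2 UMIs (SD 10.8) and 76.4 (SD 10.2), little above the counting spread of 8.79 and 8.74 that such means give. Mean UMIs per cell before thinning were 1143 for mitochondrially encoded genes in ZD7288 cells and 1286 in vehicle cells, and for nuclear subunits 895 and 802. Counts per cell rest on depth as well as on RNA content, and these cannot be told apart.

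In every range of UMIs per cell, the median mitochondrially encoded share was lower in ZD7288 than in vehicle cells. From 10000 to below 20000 UMIs it was 5.04% in ZD7288 cells and 5.81% in vehicle cells, and from 20000 to below 40000 UMIs 4.71% and 5.73%. The lowest shares lay in shallow cells, at 0.826% in 297 ZD7288 cells and 2.03% in 22 vehicle cells of 1000 to below 5000 UMIs. Nuclear subunits of the same shallow cells made up 3.98% of nuclear UMIs (3.93 to 4.03) in ZD7288 cells and 3.99% (3.83 to 4.15) in vehicle cells. Over all ranges this value stayed between 3.96% and 4.18% in ZD7288 cells and between 3.9002% and 4.25% in vehicle cells. Barcodes above the 10% limit numbered 422 in the ZD7288 library and 72 in the vehicle library. Their mitochondrially encoded share of summed UMIs was 26.7% and 26.0%, and nuclear subunits made up 4.27% (4.23 to 4.30) and 4.03% (3.95 to 4.12) of their nuclear UMIs.

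**Figure D5:**
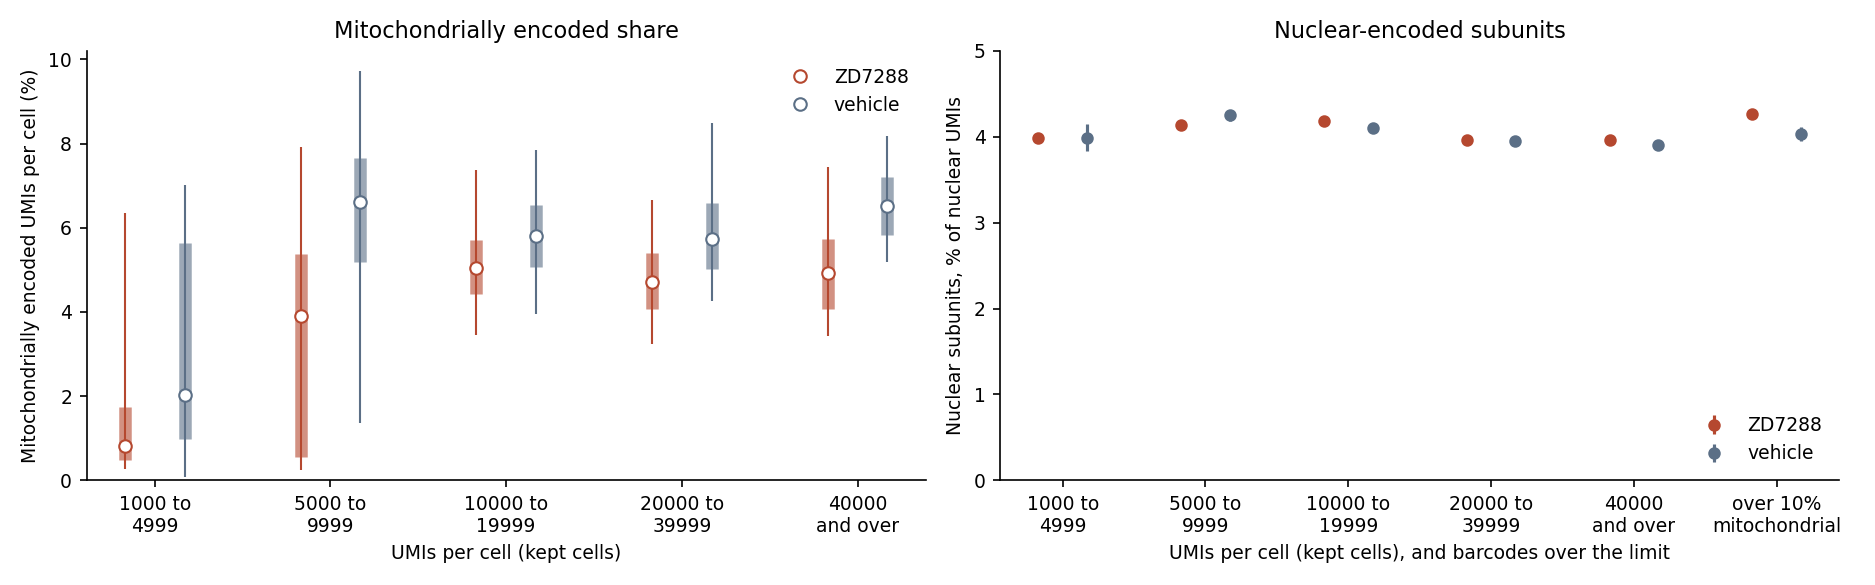
Left, mitochondrially encoded UMIs per cell (%) in kept cells by range of UMIs per cell, with medians (open points), quartiles (thick lines) and percentiles 5 and 95 (thin lines). Right, nuclear subunits as % of nuclear UMIs in the same ranges and in barcodes above 10% mitochondrial UMIs, with exact 95% binomial intervals. ZD7288 stands left of vehicle in each pair. The medians on the left run from 0.826% to 5.04% in ZD7288 cells and from 2.03% to 6.61% in vehicle cells, and the values on the right from 3.96% to 4.27% and from 3.9002% to 4.25%.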

How the data were processed

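The deposited matrix held raw UMI counts per gene and cell barcode of both libraries. The submitters' processing notes name Cell Ranger, and per the file headers its version was 3.0.2. The sources used here give no genome build, annotation or rule of barcode selection. Barcode suffixes were tied to samples by the numbers that open the sample titles, and every direction rests on this tie. The treated sample's label spells the compound ZD2788, the protocol ZD7288.

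Cells with at least 1000 UMIs, 500 genes and at most 10% mitochondrially encoded UMIs were kept, 3135 of 3849 ZD7288 and 732 of 842 vehicle barcodes. UMIs were summed per library. Intervals at 95% (Clopper-Pearson for ratios and shares, exact Poisson for CPM) cover counting error only, and cells were not treated as replicates. Scripts ran in Python 3.11.15 with NumPy 2.4.6, SciPy 1.17.1, pandas 2.3.3 and scikit-learn 1.9.0 and were tested on simulated data. Doublets stayed in. In another setting 83 cells, marked against simulated doublets at 0.8% of a library per 1000 cells, were left out. Members and lists were chosen with earlier results of these data known. Named genes were the mitochondrially encoded genes, in each complex the 2 most abundant subunits and those past the size rule, such assembly factors, isoform sets and up to 4 such genes a list. Further named genes were picked with their values known. The values of 1 gene that the rule names are not reported here.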

Additional observations from a re-analysis of the deposited data

How the results depend on the processing

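With 1 library per group no replicate could be left out. No paired analysis was possible because each group was a single library. Of 34 single genes followed through 16 other settings, 28 kept their sign in all of them. The settings that change a floor or the size rule cannot alter the ratio of a single gene. Many of the 34 genes were also named for passing the size rule. Stable signs were thus partly fixed in advance. Mt-nd1, Mt-nd2, Mt-nd5, Mt-atp6 and Mt-atp8, none of them past the size rule, changed sign in at least 1, as did the summed levels of mitochondrial complexes I and V, of nuclear complexes I and III and of the accessory subunits of complex I. At a mitochondrial limit of 5% the mitochondrial sums were 0.13 for complex I and 0.049 for complex V, against -0.10 and -0.21 in the main setting. Cox7a1 had a log2 ratio of 0.90 in all kept cells, -0.17 at a mitochondrial limit of 5% and -0.15 by the mean of per-cell shares, over 14 vehicle UMIs.

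The limit of 5%, which acts on the mitochondrially encoded genes themselves and left 1912 ZD7288 and 173 vehicle cells, moved most results. There the log2 ratio of the summed level was -0.083 for mitochondrially encoded genes and -0.047 for nuclear subunits, the medians were 0.018 and -0.032, and 2 mitochondrially encoded genes were higher and 3 lower, and 2 nuclear subunits higher and 5 lower. Scaled by the median gene ratio, the summed levels were -0.40 and -0.070, the median of nuclear subunits -0.048, and 6 subunits were higher and 7 lower. Why these values moved was not tested. Shares over all measured genes in these settings are not given, so the counts cannot be set against the main background.

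For mitochondrially encoded genes the summed log2 ratio was -0.31 in the main setting, -0.25 with no mitochondrial limit, -0.26 over all barcodes, -0.30 from 5000 UMIs, -0.27 from 10000 to 40000 UMIs, -0.32 thinned to 2000 UMIs, -0.33 per UMIs of nuclear genes and per UMIs of other genes, and -0.36 by the mean of per-cell shares. For nuclear subunits it was 0.02, and 0.0080 from 10000 to 40000 UMIs, 0.0092 by the mean of per-cell shares, -0.00070 per UMIs of nuclear genes and -0.00073 per UMIs of other genes. With a floor of 5 CPM 2 mitochondrially encoded genes were higher, and with 50 CPM 0 were. At 1.5-fold, 1 mitochondrially encoded gene was higher, Mt-nd6, and 1 lower, Mt-cyb, which passed only just at 1.5001-fold (1.49 to 1.51). By the same rule 1 nuclear subunit was higher and 1 lower, against 9.22% higher and 4.17% lower of all measured genes. Leaving out doublets, summing rows of a symbol and a floor of 20 CPM in the higher library moved no group result by more than its counting error, or a count by more than 1.5 times. Ratios over few vehicle UMIs (Cox4i2, Cox7a1, Ndufa4l2, Gdf15, Fgf21) are limited by depth.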
